A study of Mus musculus with 40 samples.

Results

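The genes described here encode the protein subunits of the mitochondrial ribosome. They were taken as every probe of the array whose annotated symbol is Mrpl (large subunit) or Mrps (small subunit) followed by a number. The family was chosen with earlier results of these data known, but the rule itself used no measured value. It found 110 probes for 76 genes among 25697 probes for 16593 symbols, 68 probes for 47 Mrpl genes and 42 probes for 29 Mrps genes. All 76 symbols matched a RefSeq gene. Mrpl41 and Mrpl44 were not analysed here.

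Whole-brain RNA came from 40 male offspring of the C57BL/6J strain (written C57BL\6 in the labels), killed at 9 weeks of age, with 1 array per animal. Dams ate a diet low in fat and rich in carbohydrate (LF) or one rich in fat (HF) from before mating until weaning on day 21, and their sons were then fed LF or HF. There were 4 groups of 10 animals, LF_LF, LF_HF, HF_LF and HF_HF, where the first part of a name is the dam's diet and the second part the son's. No group carried a transgene or a mutation. Each breeding cage held up to 2 dams, and the arrays came from 12 cages, 6 per maternal diet, so animals of a cage could be littermates and were not fully independent.

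Mitochondria carry a small genome of their own, and its messenger RNAs, which encode core subunits of the respiratory chain and of ATP synthase, are translated inside the organelle by a dedicated ribosome. The ribosomal RNAs of that ribosome are mitochondrial, but all of its proteins are encoded in the nucleus, made in the cytosol and imported. Some of these proteins descend from bacterial ribosomal proteins, and others exist only in mitochondrial ribosomes. The small subunit reads the message, and the large subunit forms the peptide bond. Loss of single subunits causes combined respiratory chain deficiency in humans, often with disease of the brain, a tissue with a high demand for ATP.

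Many mitochondrial ribosomal protein genes have compact GC-rich promoters, and nuclear respiratory factor 1 (NRF1), the ETS factor GABP and YY1 are known regulators of nuclear genes for mitochondrial proteins. RefSeq promoter windows (mouse build GRCm38.p6, 250 bases before to 50 bases after the transcription start) were at hand for 67 of the 76 genes, in 73 windows, and were searched on both strands for GCGCA and GCGC with 1 base of any kind between them (NRF1), CCGGAAG (ETS) and AAGATGGC (YY1). Stretches upstream of the start are printed because they hold 1 or more of these motifs and belong to subunits with distinct places in the ribosome. Capitals mark the match, in the orientation of the gene, so that a match on the other strand appears as its reverse complement. Mrpl12 is a stalk protein that has also been reported to bind the mitochondrial RNA polymerase (chr11:120484537-120484596, plus strand, NRF1 on the opposite strand). Mrpl45 lies at the exit of the peptide tunnel facing the inner membrane (chr11:97315586-97315695, plus strand, 2 NRF1 matches). Mrpl43 is a mitochondria-specific protein of the large subunit (chr19:45006443-45006512, minus strand, 2 ETS matches). Mrpl52 is also mitochondria-specific (chr14:54426849-54426908, plus strand, ETS on the opposite strand). Mrps18a carries a small-subunit name but sits in the large subunit in structures of the mammalian ribosome (chr17:46110944-46111003, plus strand, ETS). Mrpl36 is the counterpart of bacterial L36 (chr13:73330949-73331008, plus strand, YY1 on the opposite strand).
Mrpl12: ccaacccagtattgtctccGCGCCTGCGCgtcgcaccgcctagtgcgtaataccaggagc
Mrpl45: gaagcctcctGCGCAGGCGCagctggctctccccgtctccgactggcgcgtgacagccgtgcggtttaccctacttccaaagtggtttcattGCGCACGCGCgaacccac
Mrpl43: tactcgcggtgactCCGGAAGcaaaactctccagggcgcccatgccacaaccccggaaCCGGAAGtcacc
Mrpl52: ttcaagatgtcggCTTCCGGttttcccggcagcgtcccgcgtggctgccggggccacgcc
Mrps18a: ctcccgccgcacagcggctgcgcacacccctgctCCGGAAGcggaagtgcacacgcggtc
Mrpl36: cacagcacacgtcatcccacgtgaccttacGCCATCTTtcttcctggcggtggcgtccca

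The ETS motif was the most frequent of the 3 in these promoters. It was found for 26 of the 67 genes (38.8%), against 13.9% of the 13335 genes of the array and 9.93% of all 27025 genes with a promoter window. The YY1 motif was found for 12 genes (17.9%, against 3.77% and 3.19%), and the NRF1 motif for 12 genes (17.9%, against 8.04% and 5.19%). At least 1 of the motifs was present for 42 genes (62.7%), against 22.8% and 16.4%. By subunit, 27 of 41 Mrpl genes and 15 of 26 Mrps genes held one. The genes lay on 17 chromosomes, with the most on chromosome 11 (11 genes, 14.5%, against 8.07% of the array's genes) and chromosome 17 (8 genes, 10.5%, against 4.61%). These shares are descriptions, a match is not a binding site, and the genes of the group were not matched for base composition.

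**Figure D1:**
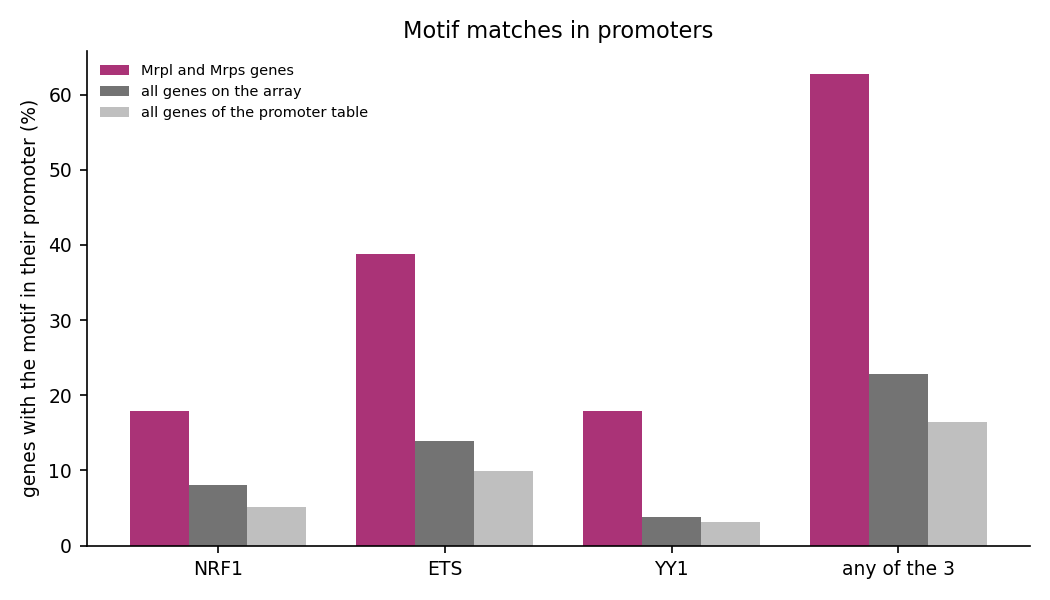
Share of genes (%, vertical axis) with each motif on either strand of the RefSeq promoter window, for the Mrpl and Mrps genes (67 genes), all genes of the array (13335) and all genes with a window (27025). The Mrpl and Mrps bars stand above the others for each motif, for ETS at 38.8% against 13.9% of the genes of the array.

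The values were probe intensities, quantile-normalised over arrays, and are given as log2 intensity. A probe was tested when it exceeded the array's background, set at the 95th percentile of 1341 taste, vomeronasal and olfactory receptor probes, in at least 20 arrays. Of the 110 Mrpl and Mrps probes, 97 were tested (59 Mrpl, 38 Mrps, 71 genes), of 14381 tested in all, and 92 exceeded background in all 40 arrays. Mrpl19, Mrpl21, Mrpl32, Mrps14 and Mrps36 had no tested probe. Mrps36 is now known as a component of the 2-oxoglutarate dehydrogenase complex. Brain identity held, with 8 of 10 neuronal marker genes above background.

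Before any diet comparison, the arrays were seen to lie on opposite sides of the first principal component, computed over all tested probes other than the Mrpl and Mrps ones, which carried 54.8% of the variance (the second carried 14.3%). Its score was above 0 in 15 arrays (8.80 to 39.1) and below 0 in 25 (-23.5 to -7.09). The arrays above 0 numbered 5 of LF_LF, 2 of LF_HF, 4 of HF_LF and 4 of HF_HF, and 7 of the 12 cages had arrays on both sides. Of the arrays, 8 had a mean correlation with the others over 3 median absolute deviations below the median, and all 8 lay above 0. The labels give no chip or scan batch, so that its part in this split was not tested.

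Mrpl and Mrps probes differed between these sides, and most were slightly lower in arrays above 0. These values are descriptions with no test. The median difference (arrays above 0 minus arrays below 0) was -0.15 for the large subunit and -0.18 for the small subunit, against -0.089 over all tested probes. Of the 97 probes, 79 had a lower and 18 a higher median above 0, against 9555 and 4780 of all 14381 tested probes. The mean level of the 38 small-subunit probes was 9.27, 9.31 and 9.37 (lowest, median and highest) in arrays above 0 and 9.35, 9.40 and 9.48 in arrays below 0. The mean level of the 59 large-subunit probes was 9.09, 9.13 and 9.19 above 0 and 9.06, 9.16 and 9.24 below 0. The sides overlapped for both, but little for the small subunit.

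The lowest differences between sides were those of Mrpl11 (-0.42), Mrpl40 (-0.41) and Mrpl34 (-0.40). Mrpl11, at the base of the stalk that recruits translation factors, was at 8.74, 9.05 and 9.43 above 0 and at 9.20, 9.47 and 9.68 below 0. Of the other stalk proteins, Mrpl12 differed by -0.29. The probes of Mrpl10, which anchors Mrpl12, differed by -0.35 (ILMN_2822621) and -0.20 (ILMN_2822622), the latter near the median of -0.15 over the 97 probes. Mrps12, at the decoding centre, differed by -0.34, and Mrps22, a mitochondria-specific protein, was at 8.90, 9.07 and 9.19 above 0 and 9.25, 9.44 and 9.83 below 0, with no overlap. Only 3 of the 97 probes, those of Mrps22, Mrps10 (ILMN_2691360) and Mrps11 (ILMN_2786708), were lower above 0 without overlap, all of the small subunit (3.09%, against 0.487% of all tested probes). The other tested probes of Mrps10 (ILMN_2841840, -0.25) and Mrps11 (ILMN_2681946, -0.19) were also lower, but overlapped between sides.

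A smaller set of probes differed the other way, and by more. A median over 0.5 higher above 0 was seen for 9 probes (9.28% of the 97, against 7.91% of all tested probes), and 7 did not overlap between sides (7.22%, against 5.36%), shares near those of the whole array. The largest was Mrpl13 (ILMN_2982200), the counterpart of bacterial L13, at 7.64, 8.74 and 9.34 above 0 and at 6.50, 6.87 and 7.13 below 0, a median difference of 1.87. Mrpl20, the counterpart of bacterial L20, differed by 1.80, Mrps15 by 1.198, Mrpl47 (ILMN_1226238) by 1.10, Mrps18c by 1.06 and Mrpl52 by 1.02. Mrpl39 (0.84), Mrpl18 (ILMN_2823250, 0.64) and Mrps25 (ILMN_1246044, 0.61) completed the set.

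Other probes of the same genes did not share these differences. For Mrpl13, the second tested probe (ILMN_2982192) was at 10.6, 10.7 and 10.9 above 0 and at 10.7, 10.9 and 11.0 below 0, a difference of -0.15, although both probes are annotated to the same transcript. The second probe of Mrpl47 differed by -0.091, that of Mrpl18 by -0.17, and the other probes of Mrps25 by -0.35 and -0.28. In these 4 genes 1 probe was higher in arrays above 0 and every other tested probe of the gene was lower. Of 20 member genes with several tested probes, these 4 had probes whose side differences lay over 0.5 apart, and over the whole array this held for 562 of 2602 genes (21.6%). Which probe follows the transcript was not tested.

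**Figure D2:**
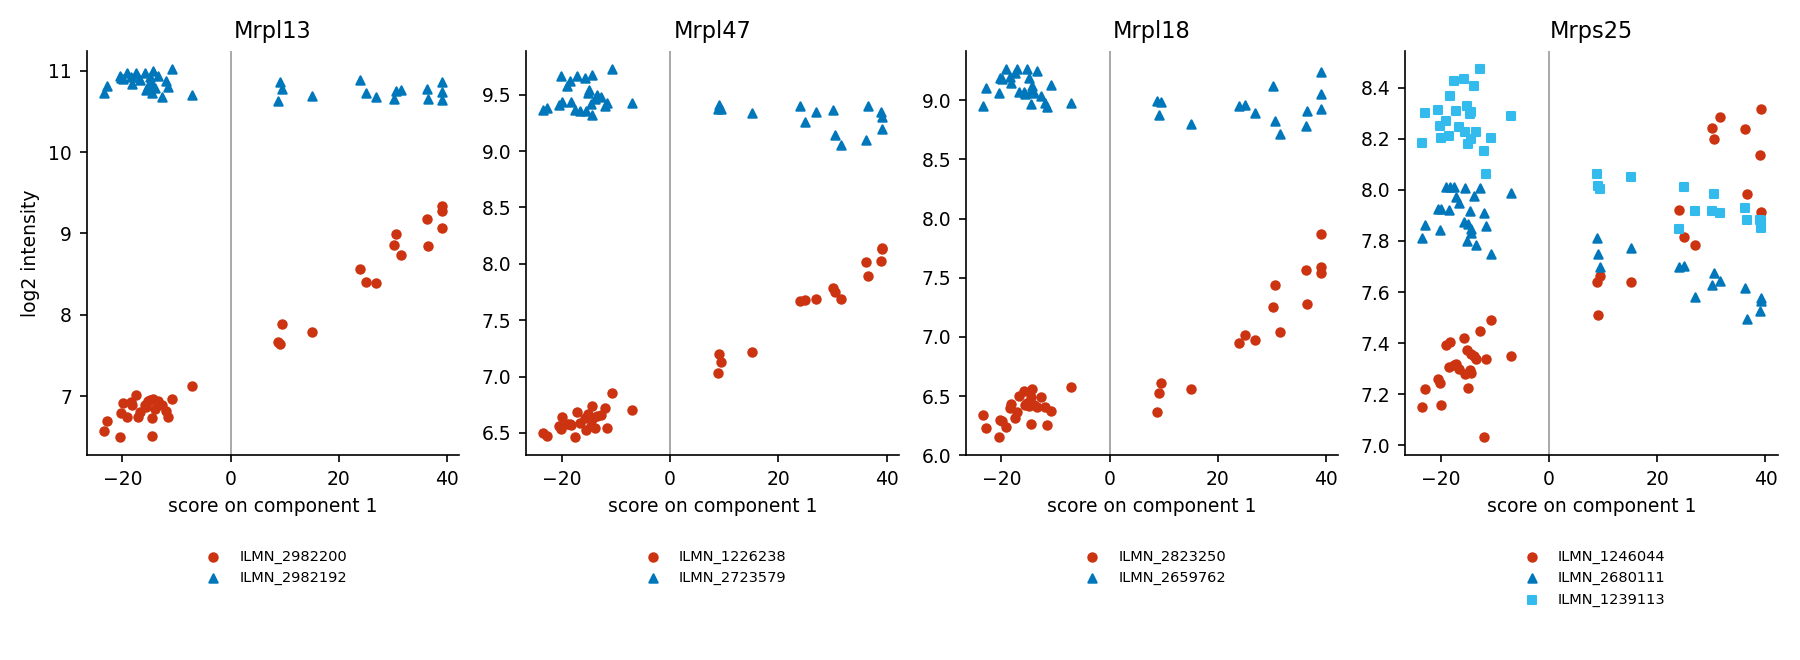
Log2 intensity (vertical axis) of each tested probe of Mrpl13, Mrpl47, Mrpl18 and Mrps25 against the array's score on component 1 (horizontal axis, no unit), 40 arrays per probe. In each gene 1 probe (red circles) is higher in arrays above 0, by 1.87, 1.10, 0.64 and 0.61 in the median, and the others are lower.

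Within a side, the subunits varied together. Across the 25 arrays below 0, the mean level of the large subunit correlated with that of the small subunit (Pearson's r 0.93, Spearman's rho 0.94). Across the 15 arrays above 0 the correlation was weaker (r 0.52, rho 0.47). These are descriptions, since both means come from the same libraries and share their normalisation.

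By group, the subunit means differed by less than the spread between animals. The large-subunit mean was 9.16 ± 0.027 (SD, n = 10) in LF_LF, 9.15 ± 0.043 in LF_HF, 9.15 ± 0.035 in HF_LF and 9.14 ± 0.048 in HF_HF. The small-subunit mean was 9.36 ± 0.044 in LF_LF, 9.38 ± 0.046 in LF_HF, 9.37 ± 0.057 in HF_LF and 9.37 ± 0.063 in HF_HF. All 4 groups overlapped for both subunits. The spread of a single Mrpl or Mrps probe between animals of a group was a median SD of 0.16, and 0.12 between animals of the same group and the same side of the first component, against 0.17 and 0.14 over all tested probes.

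**Figure D3:**
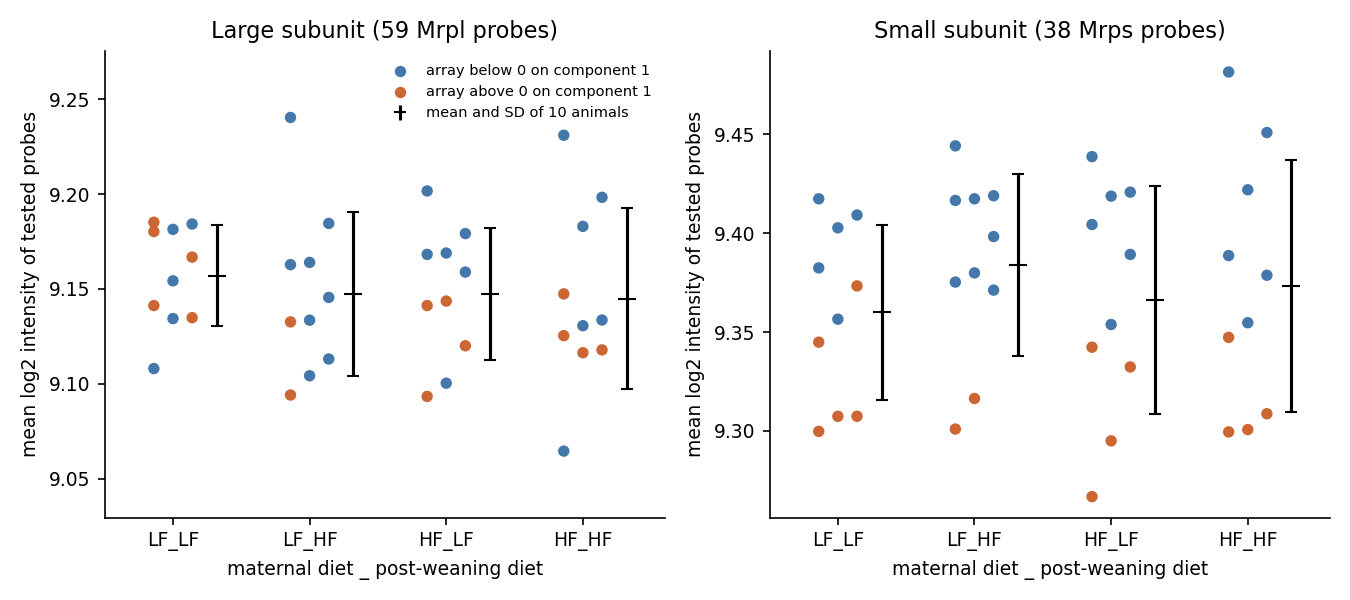
Mean log2 intensity per animal of the 59 large-subunit probes (left) and the 38 small-subunit probes (right), by group, with the group mean and SD beside the points (n = 10 each). The groups overlap throughout, and the arrays above 0 on component 1 (orange) lie lower for the small subunit, between 9.27 and 9.37.

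The maternal diet was first compared in offspring fed LF (HF_LF against LF_LF). None of the 97 probes passed an adjusted p of 0.05 (limma, Benjamini-Hochberg over 14381 probes), and none of all tested probes did (0%). At an unadjusted p of 0.05, 0 Mrpl or Mrps probes passed, against 198 of all tested probes (1.38%). The median log2 difference was 0.00056 for the large and 0.0048 for the small subunit, against 7.9e-05 over all tested probes. Of the 97 probes 51 were higher and 46 lower, against 7199 and 7182 of all tested probes. The 95% interval of the difference lay within a 1.2-fold change in either direction for 85 of the 97 probes.

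The probe with the smallest p was Mrpl28, the counterpart of bacterial L28. It was at 10.6, 10.8 and 11.0 in LF_LF and at 10.5, 10.7 and 10.9 in HF_LF. The groups overlapped, and the difference was -0.093 ± 0.065 (SE, limma adjusted p = 0.9999). The difference was -0.062 ± 0.045 for Mrpl15 and -0.074 ± 0.055 for Mrpl36. Among small-subunit probes it was 0.095 ± 0.071 for Mrps35 and 0.070 ± 0.078 for Mrps23, both mitochondria-specific, and -0.067 ± 0.079 for Mrps6, the counterpart of bacterial S6. Every one of these intervals included 0. All 17 oligodendrocyte probes (median -0.077, mean level per array 10.0 to 10.8 in LF_LF and 9.73 to 10.8 in HF_LF) and all 11 choroid plexus probes (median -0.29, mean level 6.74 to 8.78 and 6.75 to 8.72) were lower in HF_LF. None passed the adjusted p, and their part was not tested.

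The maternal diet was next compared in offspring fed HF (HF_HF against LF_HF). No Mrpl or Mrps probe and no other tested probe passed the adjusted p of 0.05 (0%). At an unadjusted p of 0.05, 3 of the 97 probes passed, all lower in HF_HF, against 637 of all tested probes (4.43%), of which 462 were lower (3.21%). The share for the 97 probes is therefore near that of the array. Of the 97 probes 65 were lower and 32 higher, against 8309 lower and 6072 higher of all 14381 tested probes. The median was -0.025 for the large and -0.018 for the small subunit, against -0.015 over all tested probes. With the first component as covariate the medians were 0.0052 and 0.015, and the large-subunit median was 8.4e-05 without cage 9 and -0.049 without cage 14.

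Mrps18a was the lowest of the 97 in HF_HF relative to LF_HF. It was at 10.0, 10.3 and 10.4 in LF_HF and at 9.84, 10.1 and 10.3 in HF_HF. The groups overlapped, with 8 of 10 HF_HF animals below the LF_HF mean, and the difference was -0.16 ± 0.066 (SE, p = 0.0255, limma adjusted p = 0.853). Mrpl49 (ILMN_2634295), a mitochondria-specific protein, was at 9.84, 10.1 and 10.3 in LF_HF and at 9.75, 9.94 and 10.1 in HF_HF, with 9 of 10 animals below the other mean and a difference of -0.14 ± 0.055 (p = 0.0233, limma adjusted p = 0.853). The other tested probes of Mrpl49 differed by -0.098, 0.0036 and -0.0057, so that the gene's probes were not of one sign. Mrpl51 (ILMN_2831273), also mitochondria-specific, differed by -0.10 ± 0.049 (p = 0.0470, limma adjusted p = 0.853), and its other probes by -0.12 and -0.011. Mrpl45, above background in 28 of 40 arrays, differed by -0.12 ± 0.061. Among the arrays below 0 on the first component only, 1 of the 97 probes passed the unadjusted p. The share of all tested probes in that subset is not given here.

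The largest differences of this comparison in size belonged to the probes that were higher in arrays above 0 on the first component, and had wide errors. Mrpl20 differed by 0.41 ± 0.32 (p = 0.209) and Mrpl13 (ILMN_2982200) by 0.41. Mrps15 was at 7.27, 7.55 and 8.56 in LF_HF and at 7.30, 7.98 and 8.75 in HF_HF, a difference of 0.28 ± 0.19. LF_HF held 2 arrays above 0 and HF_HF 4. Markers of other cells also stood lower or higher in HF_HF. Lower were 8 of 8 striatal neuron probes (median -0.45, mean level per array 7.93 to 9.63 in LF_HF and 7.89 to 9.59 in HF_HF) and 4 of 4 blood probes (median -0.42, mean level 8.36 to 9.74 and 7.94 to 9.04). Of 17 oligodendrocyte probes 16 were lower (median -0.092, mean level 9.96 to 10.8 and 9.68 to 10.8), and of 8 microglial probes 7 (median -0.069, mean level 8.41 to 8.79 and 8.31 to 8.82). Of 11 choroid plexus probes 10 were higher (median 0.13, mean level 6.58 to 8.86 and 6.83 to 8.69). None passed the adjusted p, and their part in the Mrpl and Mrps values was not tested. In bulk tissue, fewer cells of a type and less RNA per cell cannot be told apart.

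The effect of the diet after weaning was compared among sons of LF-fed dams (LF_HF against LF_LF), a comparison that shares the LF_HF animals with the one before. No Mrpl or Mrps probe passed the adjusted p of 0.05, and no tested probe did (0%). At an unadjusted p of 0.05 only 1 of the 97 probes passed, higher in LF_HF, against 793 of all tested probes (5.51%), of which 592 were higher (4.12%). Of the 97, 70 were higher and 27 lower, against 8918 higher and 5463 lower of all 14381 tested probes. The median was 0.042 for the large and 0.043 for the small subunit, against 0.026 over all tested probes. The medians came to 0.0011 and 0.0013 among the arrays below 0 on the first component, where LF_LF kept 5 arrays and LF_HF 8.

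The probe that passed belongs to Mrps25, a mitochondria-specific protein of the small subunit (ILMN_1239113). It was at 7.85, 8.10 and 8.30 in LF_LF and at 8.01, 8.28 and 8.40 in LF_HF. The groups overlapped, with 8 of 10 LF_HF animals above the LF_LF mean, and the difference was 0.17 ± 0.069 (SE, p = 0.0193, limma adjusted p = 0.717). Among arrays below 0 on the first component alone the difference was 0.081. The other probes of Mrps25 differed by 0.12 (ILMN_2680111) and -0.21 (ILMN_1246044). Mrps7, which in bacteria lies in the head of the small subunit, differed by 0.14 ± 0.071 with ILMN_2981821 and by -0.049 with ILMN_2981818. Mrps26, a mitochondria-specific protein, differed by -0.14 ± 0.067 with ILMN_3005828 and by 0.060 with its other probe. In the large subunit, Mrpl35 differed by 0.14 ± 0.068, Mrpl47 (ILMN_2723579) by 0.12 ± 0.063 and Mrpl15 by 0.092 ± 0.047, each with an interval that included 0. The lowest value was again a probe that was higher in arrays above 0, Mrpl13 (ILMN_2982200), at -0.69 ± 0.37 (p = 0.0735).

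Markers of other cell types also stood higher or lower in LF_HF than in LF_LF. Of 8 microglial probes 7 were higher, with a median of 0.16 and a mean level per array of 8.34 to 8.61 in LF_LF and 8.41 to 8.79 in LF_HF. Of 11 choroid plexus probes 10 were lower (median -0.39, mean level 6.74 to 8.78 and 6.58 to 8.86), and of 17 oligodendrocyte probes 14 were lower (median -0.10, mean level 10.0 to 10.8 and 9.96 to 10.8). Of 4 blood probes 3 were higher (median 0.28, mean level 8.06 to 9.01 and 8.36 to 9.74), with S100a8, a neutrophil protein, at a difference of 0.91 (p = 0.0022). Of 13 astrocyte probes 9 were higher (median 0.11, mean level 9.52 to 9.75 and 9.48 to 9.76), and of 5 endothelial probes 4 (median 0.10, mean level 8.66 to 8.93 and 8.65 to 9.00). No probe of these lists passed the adjusted p, and their part in the Mrpl and Mrps values was not tested.

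The post-weaning diet in offspring of HF-fed dams (HF_HF against HF_LF) used none of the animals of the comparison in offspring of LF-fed dams. Again no Mrpl or Mrps probe and no other tested probe passed the adjusted p of 0.05 (0%), and at an unadjusted p of 0.05, 1 of the 97 passed, higher in HF_HF, against 173 of all tested probes (1.2%), of which 107 were higher (0.744%). The median was -0.0061 for the large and 0.0052 for the small subunit, against 0.0045 over all tested probes. Of the 97 probes 50 were higher and 47 lower, against 7640 and 6741 of all tested probes.

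The probe that passed was Mrpl15, the counterpart of bacterial L15, and it had the smallest p of the 97 in any of the 4 diet comparisons. It was at 6.42, 6.51 and 6.70 in HF_LF and at 6.50, 6.68 and 6.76 in HF_HF. The groups overlapped, with 9 of 10 HF_HF animals above the HF_LF mean, and the difference was 0.14 ± 0.041 (SE, 95% interval 0.052 to 0.22, p = 0.00309, limma adjusted p = 0.9999), a 1.10-fold change. In offspring of LF-fed dams the probe was at 6.41, 6.61 and 6.73 in LF_LF and at 6.56, 6.69 and 6.84 in LF_HF, and the difference of 0.092 ± 0.047 was of the same sign with p = 0.0627. Its level lay close to background, which it exceeded in 37 of 40 arrays. It differed between the sides of the first component by only -0.064, and among arrays below 0 alone the difference was 0.12.

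The other large-subunit probes with the smallest p were Mrpl18 (ILMN_2659762, -0.080 ± 0.067) and Mrpl17, which in bacteria lies near the tunnel exit (-0.066 ± 0.057). In the small subunit they were Mrps21 (0.080 ± 0.076), Mrps28 (-0.059 ± 0.060) and Mrps27 (0.064 ± 0.069). None of these intervals excluded 0. The 8 striatal neuron probes were all lower here too (median -0.41, mean level 8.42 to 9.60 in HF_LF and 7.89 to 9.59 in HF_HF), as were 15 of 17 oligodendrocyte probes (median -0.13, mean level 9.73 to 10.8 and 9.68 to 10.8). Higher were 7 of 8 microglial probes (median 0.088, mean level 8.37 to 8.57 and 8.31 to 8.82) and 5 of 5 endothelial probes (median 0.058, mean level 8.65 to 8.90 and 8.72 to 9.01). Their part was not tested.

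**Figure D4:**
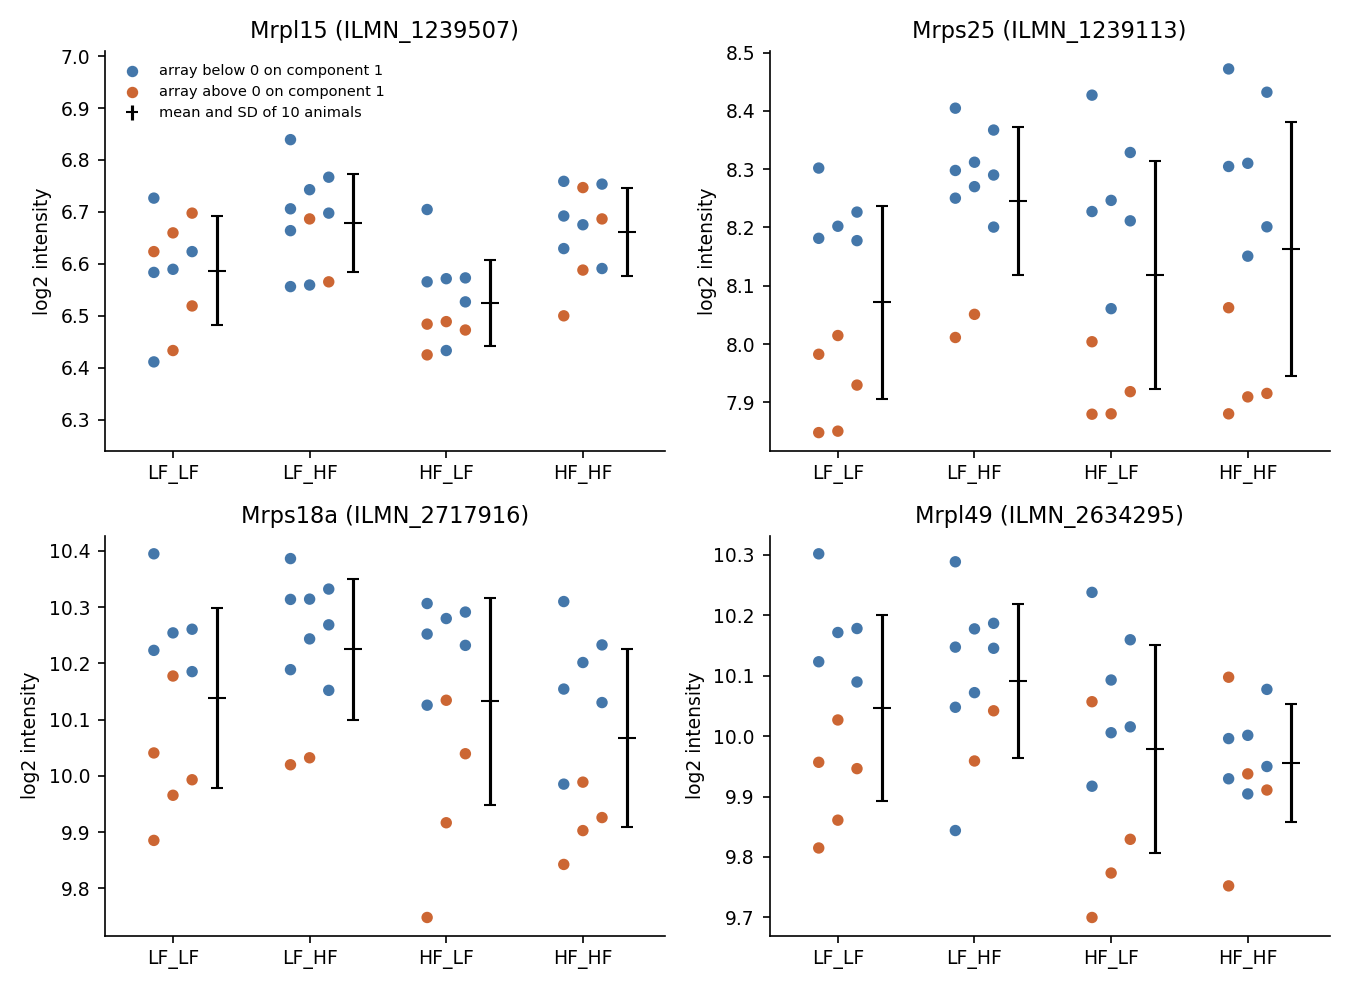
Log2 intensity (vertical axes) per animal by group for the Mrpl15, Mrps25 (ILMN_1239113), Mrps18a and Mrpl49 (ILMN_2634295) probes, with the group mean and SD (n = 10). All groups overlap. Mrpl15 was higher in HF_HF than in HF_LF by 0.14, and arrays above 0 on component 1 (orange) lie low for Mrps25.

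**Figure D5:**
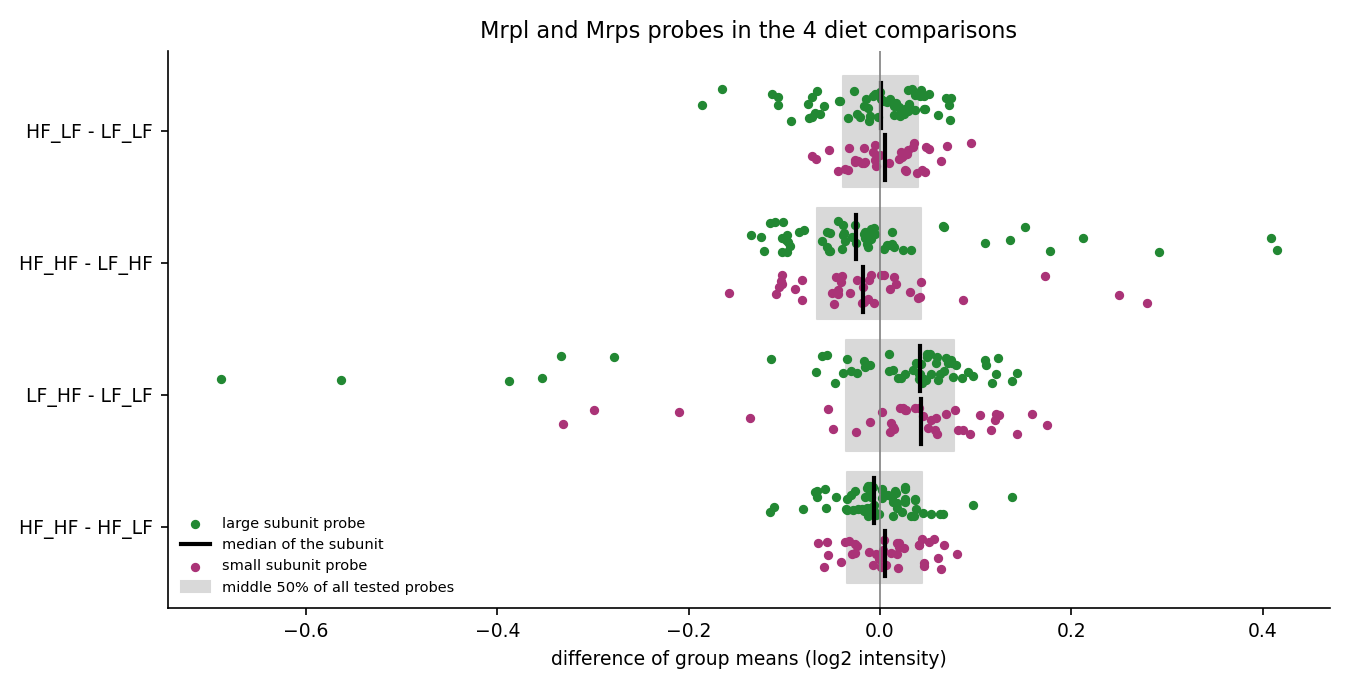
Difference of group means (log2 intensity, horizontal axis) of each of the 97 probes in the 4 diet comparisons, by subunit, with the subunit's median (black) and the middle 50% of all 14381 tested probes (grey). Most probes lie near 0. The largest difference in size was that of Mrpl13 (ILMN_2982200), at -0.69 in LF_HF against LF_LF, a probe that was higher in arrays above 0 on component 1. Mrpl15, the highest in HF_HF against HF_LF at 0.14, was not higher in those arrays.

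Whether the effect of one diet depended on the other was tested as the interaction over all 40 arrays, (HF_HF minus HF_LF) minus (LF_HF minus LF_LF). No Mrpl or Mrps probe and no other tested probe passed the adjusted p of 0.05 (0%), and 0 of the 97 passed an unadjusted p of 0.05, against 138 of all tested probes (0.96%). The median was -0.032 for the large and -0.026 for the small subunit, against -0.020 over all tested probes. Mrpl16, which in bacteria lies beside the peptidyl transferase centre, had the smallest p. It was at 8.39, 8.58 and 9.00 in LF_LF, at 8.35, 8.55 and 8.64 in LF_HF, at 8.38, 8.52 and 8.92 in HF_LF and at 8.38, 8.68 and 8.90 in HF_HF. All groups overlapped, and the interaction was 0.21 ± 0.11 (SE, p = 0.0650, limma adjusted p = 0.998), or 0.048 among arrays below 0 on the first component. The value for Mrps23 was -0.18 ± 0.11, for Mrpl9 -0.18 ± 0.13, for Mrpl45 -0.15 ± 0.093, for Mrps18a -0.15 ± 0.10 and for Mrps12 -0.14 ± 0.11.

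The precision of these comparisons was similar over the group. The median SE of a probe's log2 difference was between 0.066 and 0.075 in the 4 diet comparisons. These SEs and the intervals below count animals as independent units. The maternal diet was given to dams, in 6 cages per diet, so they do not measure its precision between cages. Each maternal comparison drew on only some of these cages. Only 5 of the 12 cages held both post-weaning diets, so that diet and cage could not be fully told apart either. The 95% interval lay within a 1.2-fold change in either direction for 85 of the 97 probes (maternal diet, fed LF), 76 (maternal diet, fed HF), 77 (post-weaning diet, LF-fed dams) and 84 (post-weaning diet, HF-fed dams), and for 52 in the interaction. Over all tested probes the corresponding shares were 72.9%, 69.6%, 66.4%, 73.3% and 43.0%. Mrpl53, a mitochondria-specific protein with the smallest spread of the large subunit, stayed between 10.5 and 10.8 in all 40 arrays and differed by -0.0094 to 0.042 in the 4 diet comparisons. Mrps30, which like Mrps18a sits in the large subunit of the mammalian ribosome, had the differences -0.032, -0.0062, 0.014 and 0.040 in the same order as above. Both tested probes of Mrps18b, a relative of bacterial S18, lay between -0.051 and 0.078.

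Probes of one gene often disagreed on the sign of these small differences. Of the 20 genes with several tested probes, all probes had one sign in 10, 9, 10 and 11 genes in the 4 diet comparisons, in the order given above, and in 10 in the interaction. Mrpl10 and Mrps33 were of one sign throughout, and Mrpl49, with 4 probes, in no comparison. Medians were also taken by origin of the protein, as a description with no test. The median over 54 probes of proteins with a bacterial counterpart and over 42 probes of mitochondria-specific proteins was -0.0046 and 0.0054 for the maternal diet in offspring fed LF, -0.038 and -0.011 in offspring fed HF, 0.041 and 0.045 for the post-weaning diet with LF-fed dams, and -0.0054 and 0.0073 with HF-fed dams.

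Other genes of mitochondrial protein synthesis were called in no comparison either. The lists were mitochondrial translation factors (9 of 11 genes tested), mitochondrial aminoacyl-tRNA synthetases, which load tRNAs (12 of 17), other ribosome proteins and assembly factors (13 of 26) and regulators of mitochondrial biogenesis (13 of 19). In LF_HF against LF_LF, the comparison with the largest shift of the Mrpl and Mrps probes, their medians were 0.013, 0.015, 0.038 and 0.057. The lists held 13, 15, 22 and 16 tested probes, of which 1, 0, 1 and 2 passed an unadjusted p of 0.05. Of all tested probes, 793 passed it (5.51%). Dap3, a GTP-binding protein of the small subunit, differed by 0.14 (p = 0.0131), and Mtrf1, of the release factor family, differed by -0.35 (p = 0.0276), neither with an adjusted p under 0.05. The 67 probes of cytosolic ribosomal proteins had a median of 0.016 there and the 84 probes of nuclear-encoded respiratory chain subunits 0.0076. The median was 0.042 for the Mrpl and Mrps probes and 0.026 over all tested probes. Among arrays below 0 on the first component it was 0.0011 for the large and 0.0013 for the small subunit. In offspring of HF-fed dams, Ppargc1a, a coactivator of mitochondrial biogenesis, differed by 0.13 (p = 0.0592).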

How the data were processed

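Total RNA of whole brain was labelled and hybridised to Illumina MouseRef-8 beadchips by the authors, 1 array per animal. The deposited intensity values were exported from BeadStudio and already quantile-normalised by the authors, on a linear scale (sorted columns differed by at most 1.1 units, and values ranged from 48.4 to 30357.2). No array-wise detection values were used, and the number of arrays limits the precision. Probe symbols came from the platform annotation (23978 probes with 1 symbol, 1719 with none).

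Values were taken as log2 without an offset. Each comparison was fitted with limma 3.58.1 (R 4.3.3; lmFit, eBayes with an intensity trend) on the 20 arrays of its groups, and the interaction on all 40, with Benjamini-Hochberg adjustment at 0.05 over the 14381 tested probes. The limma fit of each comparison was tested on simulated data with independent probes and arrays, without a first component or a cage effect. Its requirement on recovery covered only the largest added change, in the 4 diet comparisons. It therefore does not show how the fit performs for small differences or with the split of these arrays. The fits with cage terms or covariates, the motif search and the first component were not tested in this way. The probes named are every member called in a comparison or, where none was, the 3 Mrpl and 3 Mrps probes with the smallest p, besides those with the largest and smallest SD, those of genes with several tested probes, and those chosen by known role (the stalk proteins, Mrpl45, Mrps12, Mrps30 and the Mrps18 paralogues). The probes described by the sides of the first component, beyond these, were chosen after their values were seen. The values of the regularised t-test, the test closest to the methods' Bayesian test, are an alternative, as are other normalisations, filters, cage terms, array weights and array exclusions. Cell type lists and pathway lists, like the members, were chosen with earlier results of these data known. Labels give cages but no replicate numbers, chips or scan dates. P-values measure the spread between animals, several of which share a cage. Groups were compared over animals, and probes of one gene were not treated as replicates.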

Additional observations from a re-analysis of the deposited data

Results flagged for a closer look

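In 7 of 284 sets of 10 animals (2.46%; chance gives about 1 in 20), 1 animal lay far from the other 9 for a named probe. The highest Mrpl15 value in HF_LF was 6.70, against 6.57 for the next animal, in the group that was low for this gene. The lowest Mrpl51 (ILMN_2831273) value in HF_HF was 6.46, against 6.70 for the next. The lowest Mrpl9 value in LF_LF was 8.99, against 9.35. These Mrpl51 and Mrpl9 arrays lay above 0 on the first component. The highest Mrps7 (ILMN_2981818) value in HF_LF was 10.4, against 10.3. The lowest Mrpl49 (ILMN_2701363) value in LF_HF was 6.92, against 7.08. The highest Mrpl18 (ILMN_2823250) value in LF_HF was 7.02, against 6.58, in 1 of that group's 2 arrays above 0. The lowest Mrps33 (ILMN_3163302) value in HF_LF was 11.8, against 12.1. No probe had every animal of one maternal diet moving against every animal of the other.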

How the results depend on the processing

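No Mrpl or Mrps probe was called in any comparison under any alternative run, the regularised t-test included. Counts of these probes at an unadjusted p of 0.05 moved more. For LF_HF against LF_LF the count was 1, and it was 20 with array weights, 18 without cage 11 and 0 with cage means. In offspring fed HF, the maternal count of 3 ranged from 0 to 8, and the interaction count of 0 rose to 12 with array weights. The share of all tested probes at this threshold is given only for the main fit (5.51% for LF_HF against LF_LF). Whether the whole array rose alike under the alternatives was not tested, so these counts are not a result about the Mrpl and Mrps probes. Over all probes, 1 was called for the post-weaning diet in offspring of HF-fed dams with cyclic loess, array weights, the first component as covariate, without the arrays that stand apart, and, in alternatives chosen after seeing the data, with arrays below 0 only or the side as a block. In the interaction 1 was called without a filter. The large-subunit median for LF_HF against LF_LF, 0.042, was -0.0073 with the first component as covariate, -0.0019 without the arrays that stand apart, 0.0011 with arrays below 0 only and -0.0090 with the side as a block, and between 0.0020 (without cage 9) and 0.059 with cages left out in turn. The large-subunit median of the interaction, -0.032, was 0.013 with the component as covariate and 0.0092 with the side as a block. The cause was not tested. Among single probes, none of them called, Mrps6 in offspring fed LF turned from -0.067 to 0.015 without cage 4 (-0.11 to 0.015 with cages left out in turn) and to 0.0033 with arrays below 0 only, Mrpl36 from -0.074 to 0.0015 with arrays below 0 only, and Mrps27 in offspring of HF-fed dams from 0.064 to -0.027 with cage as a fixed block and to -0.013 without cage 21 (-0.013 to 0.12 with cages left out in turn). No paired analysis was possible because the labels give no replicate numbers. Cage, which the labels give, was fitted as a fixed block for the post-weaning diet (5 of 12 cages held both diets), with 0 Mrpl or Mrps probes called. Each of these fits used only the cages with both diets, 4 and 11 for LF-fed dams and 10, 20 and 23 for HF-fed dams. Few arrays entered them, so the lack of calls says little. No result was marked as changed with median centring, an offset of 50, 1 probe per gene, or Mrps18a and Mrps30 in the large subunit. A small median could cross 0 without being marked. For probes near background, such as Mrpl15 and Mrpl45, a difference in intensity understates a difference in transcript, and the number of arrays limits what can be seen.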
